A study of Mus musculus with 16 samples.

Results

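Astrocytes without Gfap were cortical cells that carried transcripts of astrocyte genes but no transcript of Gfap, the intermediate filament protein by which astrocytes are most often stained. They were chosen by counts of unique molecular identifiers (UMIs), each of which stands for 1 captured transcript. A cell barcode had 200 to 7000 detected genes, at least 3 UMIs summed over the 6 astrocyte genes Aqp4, Gja1, Slc1a2, Cldn10, Plpp3 and Slc4a4, and at most 1 UMI summed over the 8 genes P2ry12, Cx3cr1, Mag, Mog, Cldn5, Flt1, Syt1 and Pdgfra, which mark other brain cells. It also had 0 UMIs of Gfap. The rule found 4748 barcodes among the 24578 with 200 to 7000 genes (19.3%) in 14 libraries, and 92 further barcodes that met the other conditions held Gfap. Each mouse gave 233 to 518 barcodes without Gfap and 2 to 13 with it.

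The libraries came from the cortex of mice aged 17 months, 1 library per mouse. Drop-seq was used, a method that pairs each cell with a barcoded bead inside a droplet and reads the 3′ ends of the mRNAs. THY-Tau22 mice carry human 4-repeat tau with the substitutions G272V and P301S under the neuronal Thy1.2 promoter, so the transgene is not designed to be active in astrocytes. Heterozygous males were crossed with C57Bl6/J females, and wild-type (WT) littermates were the controls. There were 3 WT and 3 THY-Tau22 mice among the males, and 3 WT and 5 THY-Tau22 mice among the females. A further pair of male tables, THY-Tau22 replicate 4 and WT replicate 3, was left out because both held the same 2952 of 3000 barcodes under opposite genotypes. Replicate numbers only name a mouse.

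Astrocytes take up the glutamate that neurons release, convert it to glutamine, buffer potassium and water, supply lactate, and make most of the brain's apolipoprotein E. In the healthy cortex most astrocytes of the grey matter make little Gfap, whereas astrocytes under the brain surface and in white matter make more. After injury or in disease, reactive astrocytes raise Gfap together with other genes such as Vim and Serpina3n.

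Some features of the libraries bear on every result below. Sums over the astrocytes without Gfap held 120334 to 452300 UMIs per mouse, and the median barcode held 560 UMIs and 314 genes. Any pair of the 14 tables shared 3 to 12 of its barcodes, and no pair shared more than 1 barcode of these astrocytes. Library titles end in a number from S1 to S8 whose meaning is not given in the sources used here. The 3 WT males carried S1, S5 and S6 and the 3 THY-Tau22 males carried S3, S4 and S7, so that in males genotype and title number cannot be told apart. Females of both genotypes carried both kinds of number. The titles of WT female replicate 3 and THY-Tau22 female replicate 5 hold MB22, unlike the others, and its meaning is not given either. One animal number appears in the titles of both THY-Tau22 female replicate 1 and WT male replicate 1.

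The values at the edges of the rule describe how sharply it cuts. Exactly 3 astrocyte-gene UMIs were found in 289 of the chosen barcodes, whose median depth was 501 UMIs, and exactly 2 in 508 barcodes just outside, with a median depth of 530 UMIs. The median over all chosen barcodes was 11 and the highest value 113. Of the chosen barcodes, 3980 had no UMI of the 8 other genes and 768 had 1, and 314 barcodes with 2 were just outside. With 200 to under 220 detected genes, 510 barcodes were just inside, while 3038 barcodes below 200 genes would otherwise have been chosen. On the Gfap condition, 74 barcodes just outside held 1 Gfap UMI and 18 held 2 or more.

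The genes of the rule are given as levels only. A level is stated as CPM, the UMIs of a gene per 1000000 UMIs of these astrocytes in a mouse, and since each transcript is counted once at its 3′ end, levels of different genes need no scaling by length. Slc1a2, the main glutamate transporter of the forebrain, was at 9973 ± 1310 CPM (SD, n = 14 mice). Plpp3, a lipid phosphatase, was at 3642 ± 494 CPM, Gja1, the gap junction protein connexin 43, at 1772 ± 601 CPM, and Slc4a4, a bicarbonate cotransporter, at 1607 ± 147 CPM. The water channel gene Aqp4 was at 880.3 ± 187 CPM and the tight junction gene Cldn10 at 510.1 ± 226 CPM. Cldn10 spanned 193 to 935 CPM over the mice, the widest range of these 6 genes relative to its mean, and Slc4a4 the narrowest at 1327 to 1832 CPM.

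Markers that the rule did not use fitted the label. The 12 further astrocyte markers were all detected, and their summed level was 17597 to 30577 CPM per mouse, against 923 to 2080 CPM in 4565 barcodes of the same libraries chosen as microglia. Those held at least 3 UMIs of P2ry12 and Cx3cr1 together and at most 1 UMI over the 6 astrocyte genes of the rule. They also held at most 1 UMI over Mag, Mog, Cldn5, Flt1, Syt1 and Pdgfra. Low levels of astrocyte genes were thus part of their choice. With the UMIs of all mice pooled, their ratios to the microglial barcodes ran from 2.83 for Glul to 108 for Gjb6, a gap junction protein. Among them Slc1a3, a second glutamate transporter, was 15.6 times and Fgfr3, a growth factor receptor, 51.9 times as high as in the microglial barcodes. Markers of 8 microglial genes summed to 170 to 1182 CPM, against 16534 to 32326 CPM in the microglial barcodes, and each of them was detected. Neuronal markers summed to 193 to 762 CPM, endothelial markers to 83.0 to 654 CPM and markers of oligodendrocyte precursors to 49.9 to 363 CPM. Mural markers summed to 23.3 to 379 CPM, fibroblast markers to 17.6 to 297 CPM, ependymal markers to 21.2 to 594 CPM and markers of neural stem cells to 28.3 to 125 CPM. In the microglial barcodes the markers of oligodendrocyte precursors reached 57.2 CPM, the ependymal markers 13.5 CPM and the fibroblast markers 31.4 CPM, and none of these lists had a gene at 0 in the astrocytes without Gfap.

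Oligodendrocyte markers had the highest sums of the other classes. They summed to 1626 to 6153 CPM, against 872 to 2902 CPM in the microglial barcodes. Of their genes the rule used Mag and Mog only, and the source of these transcripts was not tested. The sums overlapped between WT males (2779 to 4538 CPM) and THY-Tau22 males (2737 to 5299 CPM), and between WT females (3135 to 6153 CPM) and THY-Tau22 females (1626 to 4642 CPM).

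**Figure D1:**
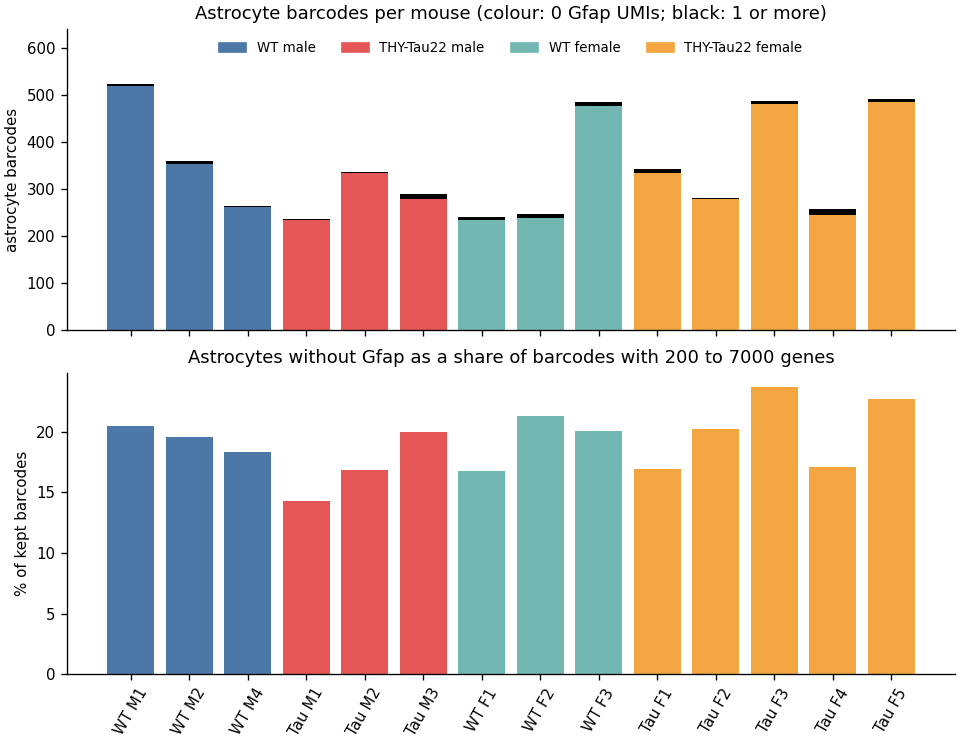
Upper panel: astrocyte barcodes per mouse, with bars in the colour of the group for barcodes without Gfap (233 to 518 per mouse) and black ends for barcodes with 1 or more Gfap UMIs (2 to 13). Lower panel: astrocytes without Gfap as a percent of the barcodes with 200 to 7000 genes, which is 14.3 to 23.7% over the 14 mice; Tau stands for THY-Tau22, M for male and F for female, followed by the replicate number.

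How often Gfap was detected went with the depth of a barcode. All 4840 astrocyte barcodes together held 137 Gfap UMIs, a level of 40.6 CPM, which amounts to 0.0228 expected UMIs in a barcode of median depth. If every astrocyte barcode had that one level, 97.2% would be expected to hold none, and 98.1% held none. The share of astrocyte barcodes with Gfap was 0.782% (95% Wilson interval 0.379 to 1.61%) under 400 UMIs, 1.36% (0.989 to 1.85%) from 400 to under 800 UMIs, 3.13% (2.20 to 4.44%) from 800 to under 1600 UMIs and 9.29% (5.88 to 14.4%) at 1600 UMIs or more. It was higher in each deeper bin. In microglia, which do not make Gfap, the shares in the same bins were 0.227%, 0%, 0.290% and 1.65%, where the interval of the 0 of 2525 barcodes in the second bin reaches 0.152%. Over all depths 0.153% of the microglial barcodes held Gfap, and few astrocyte transcripts were a condition of their choice. Of all 19738 barcodes with 200 to 7000 genes that were not astrocyte barcodes, microglia included, 0.253% held it. Median depth was 562 UMIs in the astrocyte and 570 UMIs in the microglial barcodes. With each barcode thinned to 400 UMIs, 50 of 3945 astrocyte barcodes (1.27%, 0.963 to 1.67%) and 2 of 3682 microglial barcodes (0.0543%, 0.0149 to 0.198%) held Gfap, after 895 and 883 shallower barcodes were left out. A barcode without Gfap in these data is one in which Gfap was not detected at this depth, and these intervals cover counting error only.

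Among genes outside the rule, the highest nuclear-encoded levels belonged to Malat1, a long noncoding RNA of the nucleus, at 71017 ± 16232 CPM. The next included Sparcl1, a secreted protein that promotes synapse formation, at 8073 ± 1743 CPM, the protease inhibitor gene Cst3 at 7900 ± 3968 CPM and Apoe, the lipid carrier, at 7104 ± 3128 CPM (SD, n = 14 for each). From Sparcl1 to Apoe, neighbours in this order lay within 1 SD of each other. Ptn, a growth factor, was at 5918 ± 822 CPM and Clu, which encodes clusterin, at 3894 ± 796 CPM.

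Genes of glutamate handling were detected in all 14 mice. Slc1a3 lay between 2506 and 3905 CPM, Glul, which encodes glutamine synthetase, between 1658 and 3316 CPM, and Glud1, glutamate dehydrogenase, between 473 and 778 CPM. Transcription factors of astrocytes were also detected in every mouse, with Zbtb20 at 1147 ± 260 CPM and Sox9 at 532 ± 129 CPM. Of the genes that mark astrocytes of the grey matter, Mfge8, which encodes a secreted glycoprotein, was at 1144 ± 366 CPM. Of the genes known from fibrous or subpial astrocytes, S100b was at 587 ± 213 CPM and Id3, an inhibitor of differentiation, at 312 ± 223 CPM. Reactive genes were sparse: of the 32 on the list, 5 had counts high enough to be tested, and Vim, the intermediate filament vimentin, lay between 53.4 and 145 CPM.

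At 400 UMIs per barcode, detection separated these astrocytes from microglia. Apoe was found in 79.9% of 3860 barcodes without Gfap and in 13.6% of 3682 microglial barcodes, Clu in 69.2% and 2.36%, Slc1a3 in 66.2% and 7.60%, and Mfge8 in 34.9% and 0.951%. The immediate early gene Jun went the other way, with 14.3% of these astrocytes and 83.7% of the microglial barcodes. Vim was found in 2.33% of the astrocytes without Gfap and in 0.679% of the microglial barcodes. Id3 was found in 7.25% of the barcodes, with 2.81 to 22.2% over the mice. Over all used barcodes, 888 of the astrocytes without Gfap were too shallow for this comparison.

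**Figure D2:**
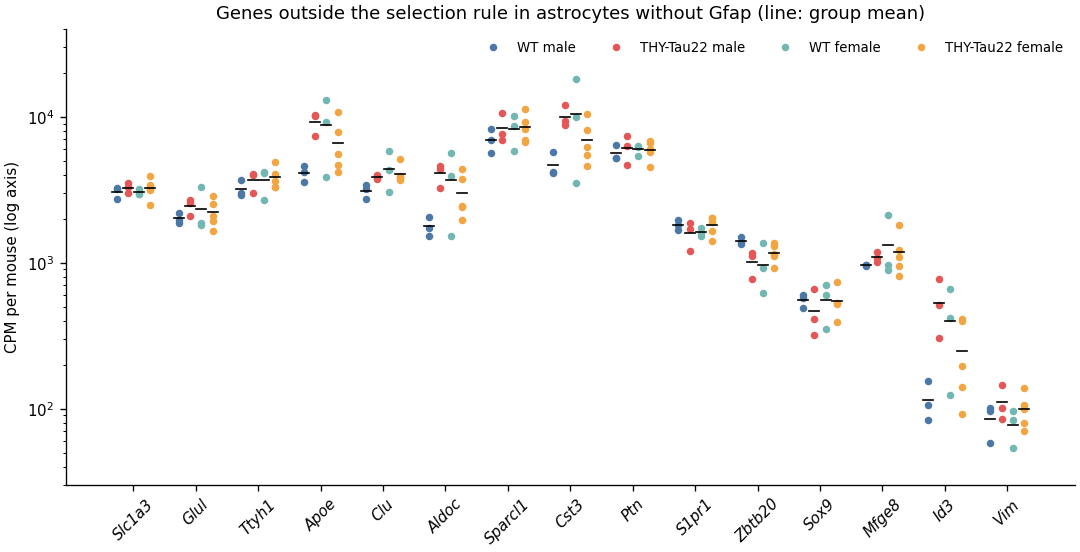
Levels of 15 genes outside the rule in astrocytes without Gfap, with 1 point per mouse, CPM on a log axis, colours for the 4 groups and a line at each group mean. Slc1a3 keeps within 2506 to 3905 CPM in all 14 mice, whereas Apoe, Cst3, Aldoc and Id3 are lower in the 3 WT males than in the 3 THY-Tau22 males and spread widely within the female groups.

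Many differences between mice followed the title number. This split was noticed in the data, so its levels are a description with no test. In the 7 libraries numbered S1, S2, S5 or S6, mt-Rnr2, a ribosomal RNA of the mitochondrion, lay between 198928 and 264083 CPM, and in the 7 libraries numbered S3, S4, S7 or S8 between 58037 and 159891 CPM. Gm42418, a locus that overlaps ribosomal RNA repeats, lay between 4886 and 9691 CPM in the first set and between 1508 and 3290.4 CPM in the second. Neither gene overlapped between the sets. Of 3068 genes with a mean of at least 50 CPM outside the rule, 236 (7.69%) did not overlap, 24 higher in the first set and 212 in the second.

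Several leading astrocyte genes were among the 212. Apoe was at 3600.2 to 5596 CPM in the first set and 7380 to 13118 CPM in the second, Cst3 at 3533 to 6248 and 8084 to 18055 CPM, and Aldoc, the brain form of the glycolytic enzyme aldolase, at 1532 to 2458 and 3253 to 5663 CPM. Mean levels in the second set were 2.23 times those in the first for Apoe, 2.26 times for Cst3, 2.19 times for Aldoc and 3.87 times for Id3. The pattern also reached the rule itself, since Gja1 and Cldn10 did not overlap and were higher in the second set, while Plpp3 did not overlap and was higher in the first. Slc1a3 (ratio 0.956) and Glul (1.06) had near equal means. These shares are out of a fixed total, of which mt-Rnr2 had a mean of 224209 CPM in the first set and 118908 CPM in the second. Its part in these ratios was not tested.

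**Figure D3:**
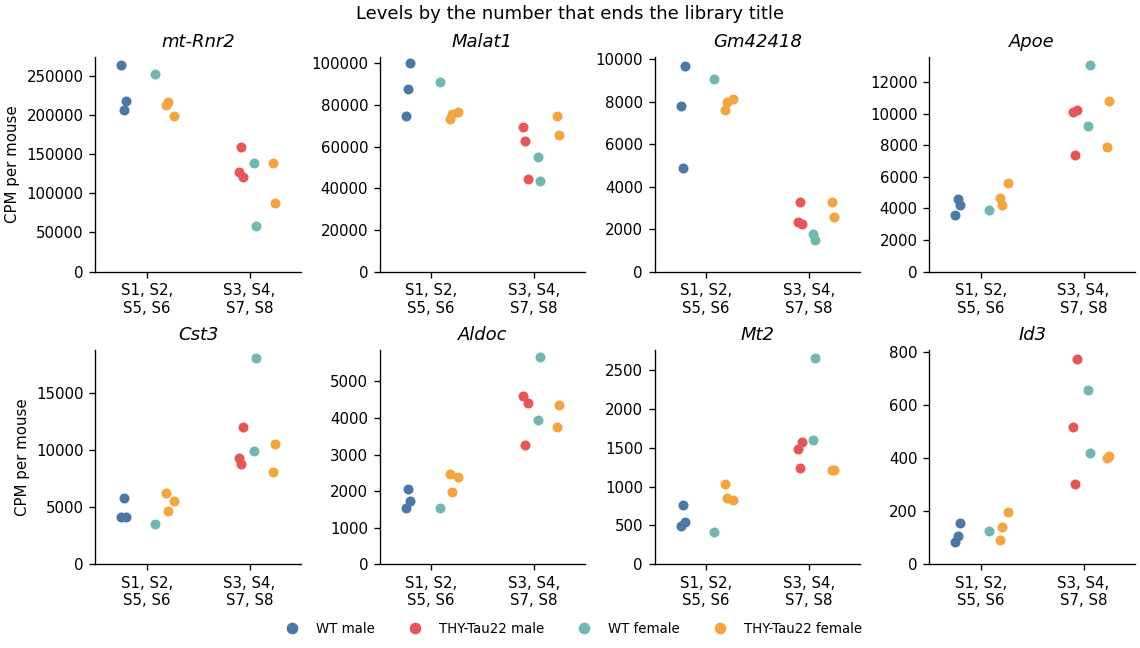
CPM per mouse of 8 genes in astrocytes without Gfap, split by the number that ends the library title, with colours for the 4 groups. mt-Rnr2 and Gm42418 are higher in every library numbered S1, S2, S5 or S6, and Apoe, Cst3, Aldoc, Mt2 and Id3 are higher in every library numbered S3, S4, S7 or S8; Malat1 overlaps, and the blue WT males sit only on the left and the red THY-Tau22 males only on the right.

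The metallothionein genes Mt1, Mt2 and Mt3, which encode small proteins that bind zinc and copper, lie side by side on chromosome 8 and had higher mean levels in the second set. Mt2 did not overlap between the sets, with a second-to-first ratio of 2.22. Mt1 had a ratio of 2.19 and overlapped, with 1031 to 2695 CPM and 2639 to 7324 CPM, so that the overlap rests on the values 2695 and 2639. Mt3, the brain form, had a ratio of 1.60, and the differences between these ratios were not tested. Mt1 and Mt2 are known targets of the metal-responsive factor MTF-1, whose element has the core TGCACNC or TGCGCNC. The 250 bases before each annotated start site are shown because this is a family with a known shared regulator. They are from RefSeq on GRCm38.p6, on the plus strand, with every match to the core on either strand in capitals. Mt1 is at chr8:94178839-94179088, Mt2 at chr8:94172368-94172617 and Mt3 at chr8:94152357-94152606.
Mt1: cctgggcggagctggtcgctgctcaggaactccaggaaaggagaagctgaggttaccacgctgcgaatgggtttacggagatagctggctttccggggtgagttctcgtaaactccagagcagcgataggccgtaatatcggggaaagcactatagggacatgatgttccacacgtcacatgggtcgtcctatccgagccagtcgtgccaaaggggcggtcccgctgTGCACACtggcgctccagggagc
Mt2: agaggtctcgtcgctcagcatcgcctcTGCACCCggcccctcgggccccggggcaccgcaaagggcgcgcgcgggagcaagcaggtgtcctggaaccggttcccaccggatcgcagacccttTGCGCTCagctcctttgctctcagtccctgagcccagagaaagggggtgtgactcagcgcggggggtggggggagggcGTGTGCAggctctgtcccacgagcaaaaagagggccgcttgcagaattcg
Mt3: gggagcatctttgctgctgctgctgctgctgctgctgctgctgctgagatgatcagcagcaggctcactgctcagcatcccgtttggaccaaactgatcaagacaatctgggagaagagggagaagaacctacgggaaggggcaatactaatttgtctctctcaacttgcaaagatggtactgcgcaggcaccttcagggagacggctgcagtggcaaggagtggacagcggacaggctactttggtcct
The windows hold 1, 3 and 0 matches. Bases after the annotated start were not searched, and which start site these cells use was not tested. These are thus not counts for the whole promoter. Of 32851 promoter windows of this length, 21.4% hold at least 1 match and 1.26% at least 3, so a match is common and says nothing of whether the factor binds there.

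The first comparison asked which genes differ between THY-Tau22 and WT males in astrocytes without Gfap. Counts were summed per mouse and tested with edgeR's quasi-likelihood test over 4146 genes, and 2 genes (0.0482%) were called, that is, had a Benjamini-Hochberg adjusted p under 0.05 and a log2 fold change of 0.5 or more in size. Both rose in THY-Tau22 males. Gm16228, a predicted gene, was at 2.54, 4.84 and 0 CPM in the WT males and at 276, 37.3 and 684 CPM in the THY-Tau22 males (log2 fold change 6.49 ± 1.04 SE, adjusted p = 0.00585, edgeR). The groups did not overlap, but 180 of its 184 UMIs in replicate 3 and 37 of its 39 in replicate 1 came from 1 barcode each.

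Ptgds, which encodes prostaglandin D2 synthase and is strong in leptomeningeal cells and oligodendrocytes, was at 135, 102 and 103 CPM in the WT males and 142, 2183 and 896 CPM in the THY-Tau22 males (log2 fold change 2.99 ± 0.57 SE, adjusted p = 0.0437, edgeR). In replicate 2, 200 of its 410 UMIs came from 1 barcode, and in replicate 3 it was found in 61 of 278 barcodes. Without the UMIs of the barcode that held most, it was at 113, 1119 and 606 CPM in the THY-Tau22 males and at 68.7, 58.1 and 89.9 CPM in the WT males. With the title number as a term, which takes its shift from the females and assumes it is the same in males, neither was called, at adjusted p = 0.0969 for Gm16228 and 0.999 for Ptgds (edgeR). The summed microglial markers were at 170 to 411 CPM in the WT males and 490 to 1182 CPM in the THY-Tau22 males. In the microglial barcodes the same sum was 17044 to 19561 CPM and 21497 to 32326 CPM, in the same order. For either sum, genotype and title number cannot be told apart in males. The part of microglial transcripts in the differences of Gm16228 and Ptgds was not tested. The count was 0 without THY-Tau22 male replicate 3, and likewise without WT male replicate 1 or 2, whereas leaving out WT female replicate 3 gave 32, and leaving out any other library gave 1 to 3.

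Beyond these 2 genes, 703 had an unadjusted p under 0.05 in males, 399 higher and 304 lower in THY-Tau22 mice, and with the title number as a term 139 did. Genes named with the smallest p after them were Tcaf1, Id3 and Gm973. Id3 was at 84.0, 106 and 154 CPM in the WT males and 517, 303 and 773 CPM in the THY-Tau22 males, with no overlap (log2 fold change 2.00 ± 0.47 SE, adjusted p = 0.181, edgeR). In THY-Tau22 male replicate 3, 61 of the 208 Id3 UMIs came from 1 barcode of 20401 UMIs, and without them Id3 was at 546 CPM. Tcaf1, a regulator of a cold-sensing ion channel, was at 193, 184 and 212 CPM in the WT and at 84.9, 79.9 and 81.8 CPM in the THY-Tau22 males, also with no overlap (log2 fold change -1.51 ± 0.34 SE, adjusted p = 0.181, edgeR). With the title number as a term the log2 fold changes were 0.64 for Id3 and -0.82 for Tcaf1.

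Among the leading genes of the lists, Apoe, Aldoc, Mt1 and mt-Rnr2 had smaller male differences with the title number as a term. Apoe was at 3600.2, 4610.5 and 4204 CPM in the WT males and 10092, 7380 and 10224 CPM in the THY-Tau22 males (log2 fold change 0.90 ± 0.31 SE, adjusted p = 0.198, edgeR). The male groups were apart, but the log2 fold change was 0.05 ± 0.28 with the title number as a term. Aldoc gave 0.95 ± 0.30 and then 0.13 ± 0.28, Mt1 0.94 ± 0.37 and 0.19 ± 0.42, and mt-Rnr2 -1.01 ± 0.46 and 0.34 ± 0.36. For mt-Nd1, a mitochondrial subunit of complex I, the values were 1.11 ± 0.28 and 0.82 ± 0.33 (adjusted p = 0.181 and 0.999, edgeR). None of these was called in either fit.

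In females, whose genotypes are spread over both kinds of title number, no gene was called (0 of 4146, 0%) by edgeR, and none by DESeq2, with 127 genes at an unadjusted p under 0.05 by edgeR and 78 by DESeq2. The smallest p belonged to Igf1r, the receptor of insulin-like growth factor 1. It was at 83.1, 113 and 133 CPM in the WT females and 61.6, 52.5, 49.5, 30.8 and 50.9 CPM in the THY-Tau22 females, with no overlap (log2 fold change -1.18 ± 0.33 SE, adjusted p = 0.996, edgeR). Its log2 fold change was -1.32 with the title number as a term and -1.18 within S3, S4, S7 and S8. Within S1, S2, S5 and S6, where there was 1 WT female, it was -1.42. In males it was 0.08 ± 0.40. The next were Gm10800 (-1.26), Gm44895 (-1.77), Nckap1, a regulator of actin (1.03), and Cr1l, a complement regulator (-1.09), each at adjusted p = 0.996 (edgeR). For Gm10800 the value was 0.014 within S1, S2, S5 and S6 and -1.71 within S3, S4, S7 and S8, and its mean level in the second set was 2.84 times that in the first. In WT female replicate 2, 73 of the 80 UMIs of Gm44895 came from 1 barcode.

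In females the metallothioneins differed in sign between the title numbers. Mt1 was at 3507, 7324 and 1031 CPM in the WT females and 2695, 1926, 2639, 3239 and 2147 CPM in the THY-Tau22 females. Its log2 fold change was -0.53 ± 0.32 over all females, 0.995 within S1, S2, S5 and S6, where there was 1 WT female, and -0.88 within S3, S4, S7 and S8, where there were 2 of each genotype. Mt2 gave -0.48, 0.98 and -0.80 in the same order. The difference between the sets was not tested.

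Over both sexes no gene was called (0 of 4146, 0%) by edgeR or by DESeq2, with 194 and 110 genes at an unadjusted p under 0.05. The test of whether the genotype difference depends on sex called no gene (0 of 4146, 0%) by edgeR and 12 by DESeq2, with 672 and 551 genes at an unadjusted p under 0.05. The smallest p of the interaction belonged to Gm10800, at a male minus female log2 fold change of 2.81, followed by Ptgds at 3.77. WT female replicate 3 was 1 of the 2 libraries titled MB22 and the only WT female numbered S1, S2, S5 or S6. Without it edgeR called 544 genes, and then each sex compared other numbers. With all libraries and the title number as a term edgeR called 0, and 162 genes had an unadjusted p under 0.05.

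Sex itself served as a check of the labels and of the test. It called 4 of 4146 genes (0.0965%), and each was X- or Y-linked: Xist and its antisense partner Tsix, which share reads unless strand is used, and Eif2s3y and Ddx3y. Xist, which silences an X chromosome in females, was at 0 in each of the 6 males and between 947 and 1689 CPM in the females. Ddx3y was at 77.4 to 148 CPM in the males and 0 in the females. The labels of sex thus matched these libraries, and the count was 4 with any single library left out.

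The gene lists were read by their medians, with the medians of all 4146 genes at 0.00 in males and -0.02 in females on the log2 scale. In males no member of any of the 16 lists was called. The 8 tested mitochondrially encoded mRNAs, which encode subunits of the respiratory chain, each had an unadjusted p under 0.05 and a log2 fold change above 0, with a median of 0.87. Of 12 tested immediate early and stress genes, 7 did, with a median of 1.08 and all 12 above 0, and of 5 reactive genes 3 did, with a median of 1.36. Over all 4146 genes, 399 were higher and 304 lower at that threshold. Beside the immediate early and reactive lists stand the microglial marker sums given above, which did not overlap between the male genotypes. Jun was found in 83.7% of the thinned microglial barcodes and 14.3% of these astrocytes, and H2-D1, an antigen-presenting protein, in 17.7% and 1.87%, and the part of microglial transcripts in these medians was not tested. The 3 metallothioneins had a median of 0.94, the 18 genes of glycolysis, lactate and glycogen a median of 0.48 with 15 above 0, and the 12 genes of fibrous, subpial and white matter astrocytes a median of 0.43. The 18 astrocyte transcription factors had a median of -0.48.

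With the title number as a term, these male medians were nearer 0. They were 0.39 for the mitochondrial mRNAs, 0.20 for the immediate early genes, 0.46 for the reactive genes, 0.19 for the metallothioneins, 0.13 for glycolysis, 0.21 for the fibrous genes and 0.01 for the transcription factors. Other medians were farther from 0: that of the 9 genes of glutamate and GABA handling was 0.02 without and 0.40 with the term, that of the 14 chaperones -0.19 and -0.47, and that of the 16 receptors -0.03 and 0.26. In the chaperone list 2 genes had an unadjusted p under 0.05 in that fit, both lower. Hspa5, which folds proteins in the endoplasmic reticulum, was one of the named members, at 1379, 1030.5 and 1425 CPM in the WT and 1182, 979.7 and 1033 CPM in the THY-Tau22 males, with overlap (log2 fold change -0.53 and -0.57 without and with the term).

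The remaining lists had male medians between -0.06 and 0.25. Lipid carriers had a median of 0.25 over 18 genes, cholesterol synthesis 0.17 over 14, water, ion and junction proteins 0.03 over 12, cortical layer and grey matter genes -0.06 over 11, and secreted and matrix factors -0.06 over 17. The 11 astrocyte genes that the study itself chose on these samples had a median of 0.07, with 3 higher and 3 lower at an unadjusted p under 0.05, and since they were chosen on these samples they are no independent evidence. In females no member of any list was called either, and list medians ran from -0.48 for the metallothioneins to 0.18 for the reactive genes. Those of glycolysis (-0.25), mitochondrial mRNAs (-0.27) and immediate early genes (-0.12) had the opposite sign to the male ones. Within S1, S2, S5 and S6, where there was 1 WT female, these 3 female medians were 0.21, 0.05 and -0.21. Within S3, S4, S7 and S8 they were -0.59, -0.35 and 0.18, so that each differed in sign between the sets. The difference between the sexes was not tested for a list.

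**Figure D4:**
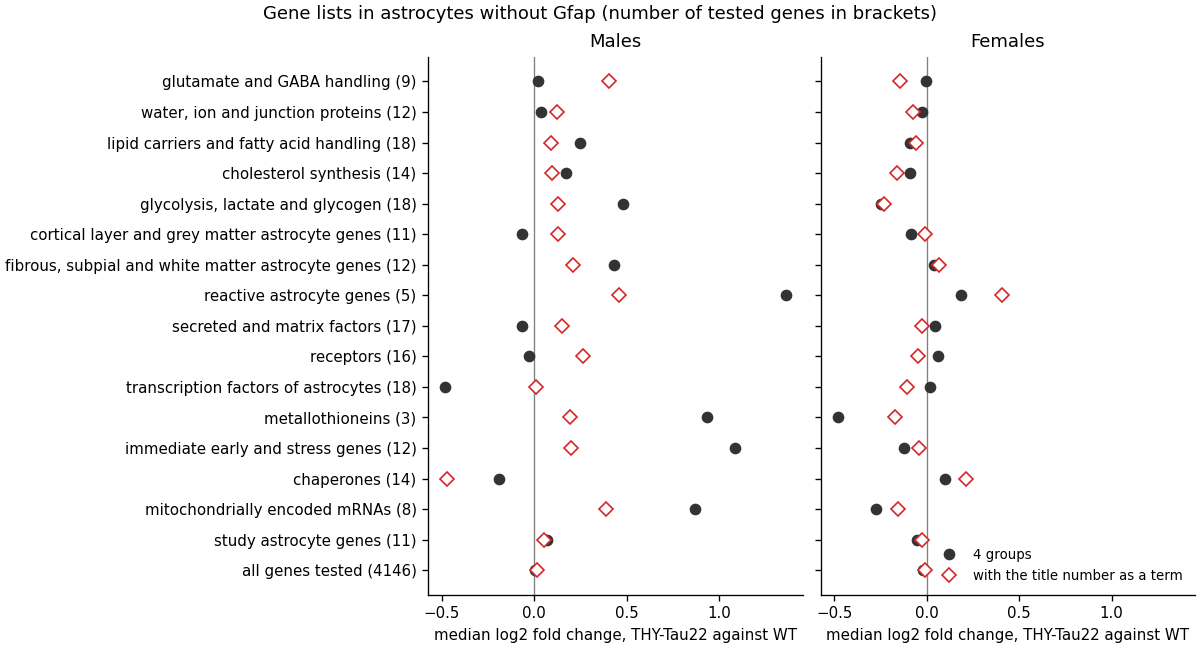
Median log2 fold change of THY-Tau22 against WT for each gene list, in males and females, with filled points for the fit of the 4 groups and open diamonds for the fit that adds the title number; the number of tested genes is in brackets. In males the points of the immediate early, metallothionein, mitochondrial and reactive lists lie at 0.87 to 1.36 and the diamonds at 0.19 to 0.46, while in females both marks lie between -0.48 and 0.41.

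Astrocytes without and with Gfap of the same mouse were compared over the genes outside the rule. Only 2 mice, THY-Tau22 female replicate 4 and THY-Tau22 male replicate 3, had at least 10 barcodes with Gfap, so this comparison covers THY-Tau22 mice alone. With the mouse as a block, edgeR called 4 of 1237 genes (0.323%). Of these, Mgp, a matrix protein (log2 fold change 4.50), and Prg4, a lubricating proteoglycan (9.11), were higher without Gfap, and Ass1, an enzyme of arginine synthesis (-3.57), was higher with Gfap. A single barcode held 200 of the 252 Prg4 UMIs without Gfap in THY-Tau22 male replicate 3, and 10 of the 18 in THY-Tau22 female replicate 4. The part of such barcodes in the call was not tested. DESeq2 called none, with 14 genes at an unadjusted p under 0.05 against 64 by edgeR.

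A minimum of 2 barcodes of each kind, chosen after seeing the data, brought in all 14 mice and called 58 of 843 genes (6.88%), 51 higher without Gfap and 7 higher with it. This split depended on the scaling. With RLE size factors in place of TMM 28 genes were called, 13 without and 15 with Gfap, and the median log2 fold change over all genes was 0.05 in place of 0.27. The barcodes with Gfap summed to only 101409 UMIs over all mice, 1157 to 15810 per mouse, and were deeper, with a median of 844 UMIs. In all, 15 genes were called by edgeR with TMM, by edgeR with RLE and by DESeq2.

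Higher without Gfap were 8 of these 15 genes. Levels of single genes in the Gfap classes are given here and in the next paragraph over the UMIs of all mice pooled. Mice with more UMIs count for more in these levels, whereas the log2 fold changes compare the classes within a mouse. F3, the coagulation tissue factor made by cortical astrocytes, was at 617 CPM without and 227 CPM with Gfap (log2 fold change 1.75 ± 0.36 SE). Gria2, a subunit of the AMPA glutamate receptor, was at 1049 and 424 CPM (1.37 ± 0.29 SE), and Malat1 was at 72454 and 43369 CPM (0.99 ± 0.21 SE). Hook3, Pnisr, Dclk1 and Luzp2 had log2 fold changes of 1.60, 1.32, 1.16 and 1.11.

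Higher with Gfap were 7 genes. Igfbp5, a binding protein of insulin-like growth factors, was at 271 CPM without and 868 CPM with Gfap (log2 fold change -1.69 ± 0.30 SE, adjusted p = 9.63e-06, edgeR). Id3 was at 281 and 907 CPM (-1.32 ± 0.30 SE), Fabp7, a fatty acid binding protein, at 252 and 641 CPM (-0.98 ± 0.31 SE), and Fxyd1, a regulator of the sodium pump, at 226 and 582 CPM (-0.94 ± 0.31 SE). Cpe, a peptide-processing enzyme, was at 1984 and 4526 CPM (-0.64 ± 0.21 SE), and the predicted genes Gm10288 and Gm973 had log2 fold changes of -1.06 and -0.97. With barcodes thinned to 400 UMIs 14 of 262 genes were called, 13 higher without Gfap and 1 higher with it. The latter was Id3, at -1.26 (adjusted p = 0.00684, edgeR), while Cpe was at -0.37 (adjusted p = 0.359, edgeR). Igfbp5, Fabp7, Fxyd1, Gm10288 and Gm973 were too low for the test after thinning. Marker sums of both kinds of barcode overlapped over the 14 mice. The oligodendrocyte markers lay between 0 and 2083 CPM (median 908 CPM) with Gfap and between 1626 and 6153 CPM (median 3230 CPM) without, and the ependymal markers between 0 and 2620 CPM (median 0) with Gfap and between 21.2 and 594 CPM (median 89.0 CPM) without. Their part in these calls was not tested. Leaving out THY-Tau22 female replicate 1 gave the lowest count, 38 genes, and leaving out THY-Tau22 male replicate 3 the highest, 70.

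**Figure D5:**
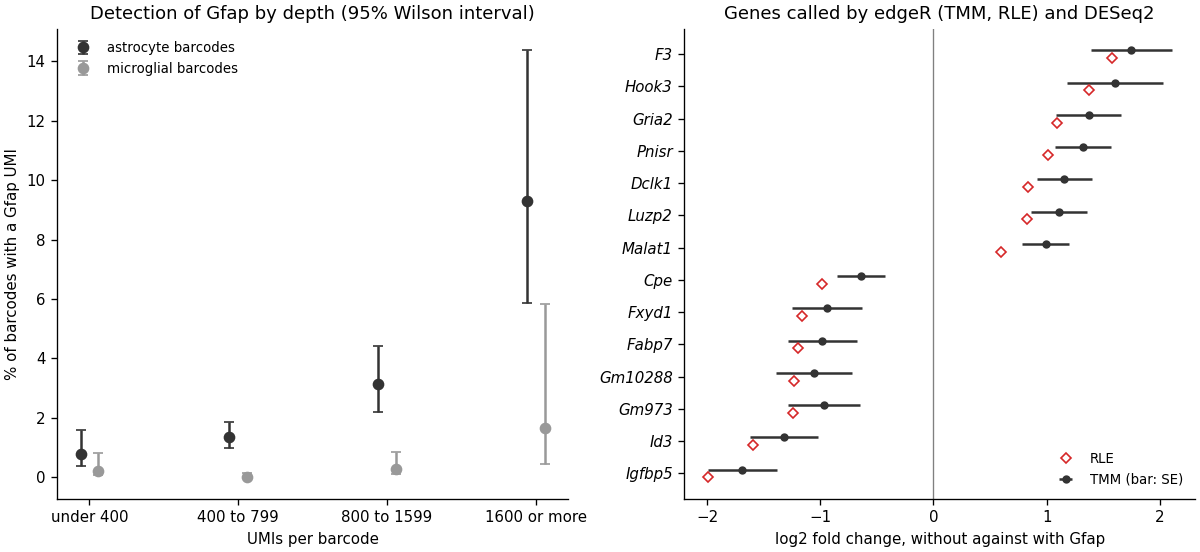
Left: percent of barcodes with a Gfap UMI by UMIs per barcode, with 95% Wilson intervals, from 0.782% to 9.29% in astrocyte barcodes and from 0% to 1.65% in microglial barcodes. Right: log2 fold change, astrocytes without against with Gfap, of 14 of the genes called under TMM, RLE and DESeq2, with filled points and SE bars for TMM and open diamonds for RLE; 7 lie right of 0 and 7 left of it under both.

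The share of astrocyte barcodes without Gfap did not pass the test in either sex. It was 98.8 ± 0.459% in WT males and 97.8 ± 1.68% in THY-Tau22 males (SD, n = 3 and 3; difference -1.01 points, two-sided exact permutation p = 0.4), and 97.7 ± 0.614% in WT females and 97.8 ± 1.71% in THY-Tau22 females (n = 3 and 5; difference 0.0841 points, exact permutation p = 0.911). Over both sexes the difference was -0.462 points (exact permutation p = 0.537). With 3 against 3 mice the smallest p this test allows is 0.1, and with 3 against 5 it is 0.0179. Astrocytes without Gfap made up 19.5 ± 1.09% and 17.1 ± 2.82% of kept barcodes in WT and THY-Tau22 males (-2.43 points, exact permutation p = 0.3, but 2.09 points with at least 500 genes per barcode, exact permutation p = 0.8) and 19.4 ± 2.36% and 20.1 ± 3.10% in WT and THY-Tau22 females (0.752 points, exact permutation p = 0.696). Within S1, S2, S5 and S6, where there was 1 WT female, the female differences were 0.131 and -0.0924 points. Within S3, S4, S7 and S8 they were -0.666 and 1.33 points.

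In some of the genes with the largest spread between mice, 1 barcode held most of the UMIs of a mouse. Over 3075 genes with a mean of at least 50 CPM, the median coefficient of variation beyond counting error was 0.221. The highest were Gm16228 (2.12), Ptgds (1.60), Nov (1.49), Ccdc153 (1.47) and Fxyd5 (1.47), followed by Gm44895, Eif2s3y, Prg4, Anxa2 and Klf2. Ccdc153, an ependymal gene, was at 0 in the 3 THY-Tau22 males and 247 CPM in THY-Tau22 female replicate 4, where 29 of its 32 UMIs came from 1 barcode. Prg4 and Mgp, which are known from leptomeningeal fibroblasts and vessels, reached 937 and 981 CPM in THY-Tau22 male replicate 3, and Klf2, an endothelial factor, reached 319.6 CPM there.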

How the data were processed

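The deposited tables hold UMI counts per gene and barcode (3000 barcodes per library), which the authors made from Drop-seq reads and did not normalize. The build mm10 comes from the submitters' processing notes, and the aligner and annotation are not given in the sources used here. Counts of the chosen barcodes were summed per mouse, since cells are not replicates, and tested with edgeR 4.0.16 in R 4.3.3 (TMM, filterByExpr, 1 mean per group, 14 libraries), with DESeq2 1.42.0 as an alternative. Calls needed an adjusted p under 0.05 together with a log2 fold change of 0.5 or more in size. The study's methods used a Poisson test over cells, which was not used here. The study also tested sex-genotype interactions with edgeR and reported significant ones, Aldoc in astrocytes among them. Shares were compared by exact permutation tests within sex. Genes are named by a rule: the rule's own genes, the 10 highest, the 4 highest tested members of each list, the 5 smallest p-values per contrast, the called genes between Gfap classes, and the 10 with the largest spread; genes called alike in 3 fits, and Fgfr3, were named after their values were seen. No doublet caller was run, and the limit on the 8 other genes and the upper limit on detected genes were the only screens against mixed barcodes. Some genes are not reported here. The members and lists were chosen with earlier results of these data known. P-values measure the spread between these mice. In the genotype tests of edgeR and DESeq2 this spread was estimated over all 4 groups together. The male p-values thus also rest on the spread among females, whose groups hold both kinds of title number. The code was also run on simulated counts. These had no shift by title number and, for the Gfap classes, no spread between mice beyond counting error. Those runs thus say nothing on either.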

Additional observations from a re-analysis of the deposited data

Results flagged for a closer look

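Within the 5 THY-Tau22 females, a level was marked where 1 mouse lay far from the other four by Dixon's criterion (gap over range above 0.71), and 9 of 110 such checks were marked, where chance alone marks about 1 in 20. Replicate 4 was highest for Clu at 5135 CPM (others 3683 to 3922), Dbi at 3084 CPM (1017 to 1576), S100b at 1164 CPM (391 to 501) and Cpe at 2938 CPM (1763 to 2009). It was also highest for Mag at 108 CPM (5.84 to 30.8), a gene of the rule, which limits its UMIs in each barcode. That mark is a description of a level only, and the 110 checks include genes of the rule. Replicate 1 was highest for Atp1b2, a sodium pump subunit, at 1117 CPM (673 to 770.4). Replicate 5 was highest for Meg3 at 542 CPM (100.2 to 228) and lowest for Cyp51, an enzyme of cholesterol synthesis, at 124 CPM (163 to 178). Replicate 2 was lowest for Fzd2, a Wnt receptor, at 263 CPM (320 to 339).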

How the results depend on the processing

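No paired analysis was possible because replicate numbers follow accession order and pair no mice; the comparison of Gfap classes has the mouse as a block, and without it 0 genes were called in 2 mice and 72 with at least 2 barcodes. Counts of called genes in males, 2 here, became 11 with DESeq2, 84 with no filter, 17 without the 2 libraries titled MB22, 1 under the 5% mitochondrial mRNA limit, 1 with a marker sum of at least 5, and 0 with all 16 libraries or with the title number as a term, with 0 to 32 when 1 mouse was left out. In females they were 0 to 0 and 5 with no filter, over both sexes 0 to 1 (1 without THY-Tau22 male replicate 2) and 16 with no filter. The interaction gave 12 with DESeq2, 72 with no filter, 1 with a marker sum of at least 5, 325 without the MB22 libraries and 0 to 544 with 1 mouse left out. Sex gave 8 with no filter and 4 to 4. The Gfap classes in 2 mice gave 0 with DESeq2, 0 thinned, 1 under the mitochondrial limit and 58 with at least 2 barcodes; 2 or more Gfap UMIs, and 0 UMIs of the 8 other genes, could not be fitted. With at least 2 barcodes the count was 32 by DESeq2, 28 with RLE, 14 thinned, 4206 of 21835 with no filter, and 38 to 70 with 1 mouse left out. With no filter Cpe, Fabp7, Fxyd1, Gm10288 and Gm973 turned to 0.71, 0.31, 0.36, 0.24 and 0.37, and with 2 or more Gfap UMIs Gm973 to 0.20. In females Gm10800 was 0.014 within S1, S2, S5 and S6, and Gm44895 0.038 with 0 UMIs of the 8 other genes. The male difference in the share of kept barcodes changed sign, to 2.09 points, with at least 500 genes. With 1 mouse left out, differences in the share without Gfap were -1.51 to -0.0378 (males), -0.300 to 0.782 (females) and -0.715 to 0.0232 points (both), and in the share of kept barcodes -3.88 to -1.07, -0.563 to 1.72 and -1.57 to -0.157. Of the other values, 828 kept direction and side of the threshold, 40 newly passed it and 55 no longer did. The causes were not tested. The title number and the minimum of 2 barcodes were chosen after seeing the data.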
